A study of Mus musculus with 12 samples.

Results

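The expression of 46 interferon-stimulated genes (ISGs) was followed in mouse bone marrow-derived macrophages (BMDMs) that had been exposed to activin A, to its antagonist follistatin, or to both. The genes were taken by symbol from the table of normalized counts, a table of 18376 genes, and all 46 were listed and passed the filter of a mean of at least 5 normalized counts over the 12 libraries, which 14318 genes passed. They fell into 9 groups by role, with 4 transcription factors, 4 sensors of nucleic acids, 5 IFIT and IFI proteins, 8 OAS and other RNA-acting enzymes, 11 other antiviral effectors, 6 genes of ISG15, ubiquitin and ADP-ribose transfer, 3 guanylate-binding proteins, 3 genes of antigen processing and 2 chemokines.

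All cells were wild-type BMDMs of adult C57BL6/J mice, grown from bone marrow in M-CSF (mouse, recombinant, 50 ng/ml), and RNA was sequenced after 6 days of treatment. The untreated group (CTRL) received no further agent. The Act group received 50 ng/ml recombinant activin A, the FST group 250 ng/ml FST288, the short form of follistatin that binds activin, and the Act+FST group both agents at these doses. Each group held 3 libraries, and nothing said whether replicates came from separate mice or cultures, so p-values measured only the spread between these libraries. No group received an interferon or a virus, so the levels described here are those of cells without such a stimulus. The cells are cultured macrophages without testis tissue around them.

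Interferons bind receptors at the cell surface that signal through JAK kinases to STAT proteins. A complex that holds STAT2 and IRF9 then binds a promoter element of repeated GAAA letters, the interferon-stimulated response element (ISRE), while STAT dimers bind the gamma-activated sequence (GAS). The genes switched on in this way encode sensors of foreign RNA and DNA, enzymes that degrade viral RNA, proteins that block entry or budding, and parts of the antigen-presenting machinery. Macrophages keep a basal level of many ISGs without infection through a low tonic interferon signal.

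RefSeq promoters (GRCm38.p6, from 250 bases before to 50 bases after each start) were matched for 37 of the 46 members, with 47 promoters. GAAA, any 2 bases and GAAA again, searched on both strands, lay in a promoter of 17 of the 37 members (45.9%) against 3.99% of all 27025 genes. The GAS letters TTCNNNGAA, which read the same on both strands, lay in a promoter of 10 members (27%) against 9.55% of all genes. These matches describe letters and not bound sites. The stretches below are the 150 bases before the start, 5′ to 3′ on the strand of the gene, with the letters that matched either motif in capitals. They are shown for the guanylate-binding members, which lie side by side on chromosome 3 and of which Gbp7 was called in both main comparisons, for the neighbours Rsad2 and Cmpk2 on chromosome 12, which had the largest differences between Act and Act+FST, and for Ifit1, whose promoter holds 2 copies of the GAAA motif.
Gbp7 (chr3:142530186-142530335, + strand): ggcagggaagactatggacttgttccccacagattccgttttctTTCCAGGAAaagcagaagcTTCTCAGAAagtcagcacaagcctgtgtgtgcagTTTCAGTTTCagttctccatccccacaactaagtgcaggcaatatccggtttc
Gbp3 (chr3:142559894-142560043, + strand): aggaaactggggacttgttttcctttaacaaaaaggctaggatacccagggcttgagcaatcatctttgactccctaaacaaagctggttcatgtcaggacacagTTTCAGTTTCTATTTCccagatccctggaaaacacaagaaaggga
Gbp2 (chr3:142620513-142620662, + strand): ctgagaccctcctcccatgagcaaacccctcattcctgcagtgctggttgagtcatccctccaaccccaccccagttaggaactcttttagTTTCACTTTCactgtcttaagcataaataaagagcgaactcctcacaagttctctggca
Rsad2 (chr12:26456453-26456602, - strand): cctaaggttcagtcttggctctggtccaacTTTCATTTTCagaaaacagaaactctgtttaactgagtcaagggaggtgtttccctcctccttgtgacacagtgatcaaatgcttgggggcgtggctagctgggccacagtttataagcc
Cmpk2 (chr12:26469065-26469214, + strand): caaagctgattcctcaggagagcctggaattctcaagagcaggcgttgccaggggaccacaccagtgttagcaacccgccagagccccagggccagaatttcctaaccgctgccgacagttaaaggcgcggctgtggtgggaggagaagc
Ifit1 (chr19:34640739-34640888, + strand): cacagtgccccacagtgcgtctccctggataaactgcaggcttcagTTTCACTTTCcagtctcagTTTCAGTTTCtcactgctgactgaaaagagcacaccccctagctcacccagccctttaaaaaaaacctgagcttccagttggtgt
Gbp7, Gbp3 and Gbp2 each carried the GAAA motif within these bases, read on the opposite strand as TTTC. Gbp7 also carried 2 copies of TTCNNNGAA there, and the stretches of Gbp3 and Gbp2 carried none. Of the 8 members called lower in Act than in Act+FST, 7 had a promoter sequence. The GAAA motif lay in 2 of these 7 and TTCNNNGAA in 2. Of the 30 other members with a promoter sequence, 15 held the GAAA motif. In the annotation (GENCODE M21, GRCm38), 22 of the 46 members lay in 9 stretches in which neighbouring members were at most 100000 bases apart, among them Ifit2, Ifit3 and Ifit1 on chromosome 19 and Psmb9, Tap1 and Psmb8 on chromosome 17.

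The members were present in every group. Per exonic base, the mean level over the 12 libraries ranged from 0.0115 normalized counts for Cxcl9 to 0.404 for Bst2. The median was 0.152 over the members against 0.0357 over all listed genes, those below the filter included. Bst2 encodes tetherin, which holds budding virus at the cell membrane, and Cxcl9 encodes a chemokine that attracts T cells. Total normalized counts ranged from 5643708 to 5955400 per library. The activin response genes Pmepa1, Skil, Smad6, Bambi, Ski and Tgif1 were higher in Act than in CTRL and than in Act+FST (6 of 6 in both, limma, adjusted p at most 0.05), as the labels of the libraries would have it. All 9 macrophage markers were listed, and their summed level was 12986 to 13619 normalized counts in Act against 12366 to 13446 in CTRL, 12060 to 13368 in FST and 12156 to 13264 in Act+FST.

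One library stood apart for the ISGs. CTRL replicate 3 was the lowest of the 12 libraries for 35 of the 46 members, against 5.18% of all genes, and its members lay at a median of 0.32 log2 units below their gene means while the median of all genes there was 0.003. Oasl1, an OAS-like protein without synthetase activity, had 110 and 90 normalized counts in CTRL replicates 1 and 2 and 33 in replicate 3. The summed monocyte markers were also lowest within CTRL there, at 1517 normalized counts against 2383 and 2238. In replicate 3 of FST their sum was 1418 and in replicate 3 of Act+FST 1671, and the part of these markers was not tested. The counts of members called against CTRL are given with and without this library.

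**Figure D1:**
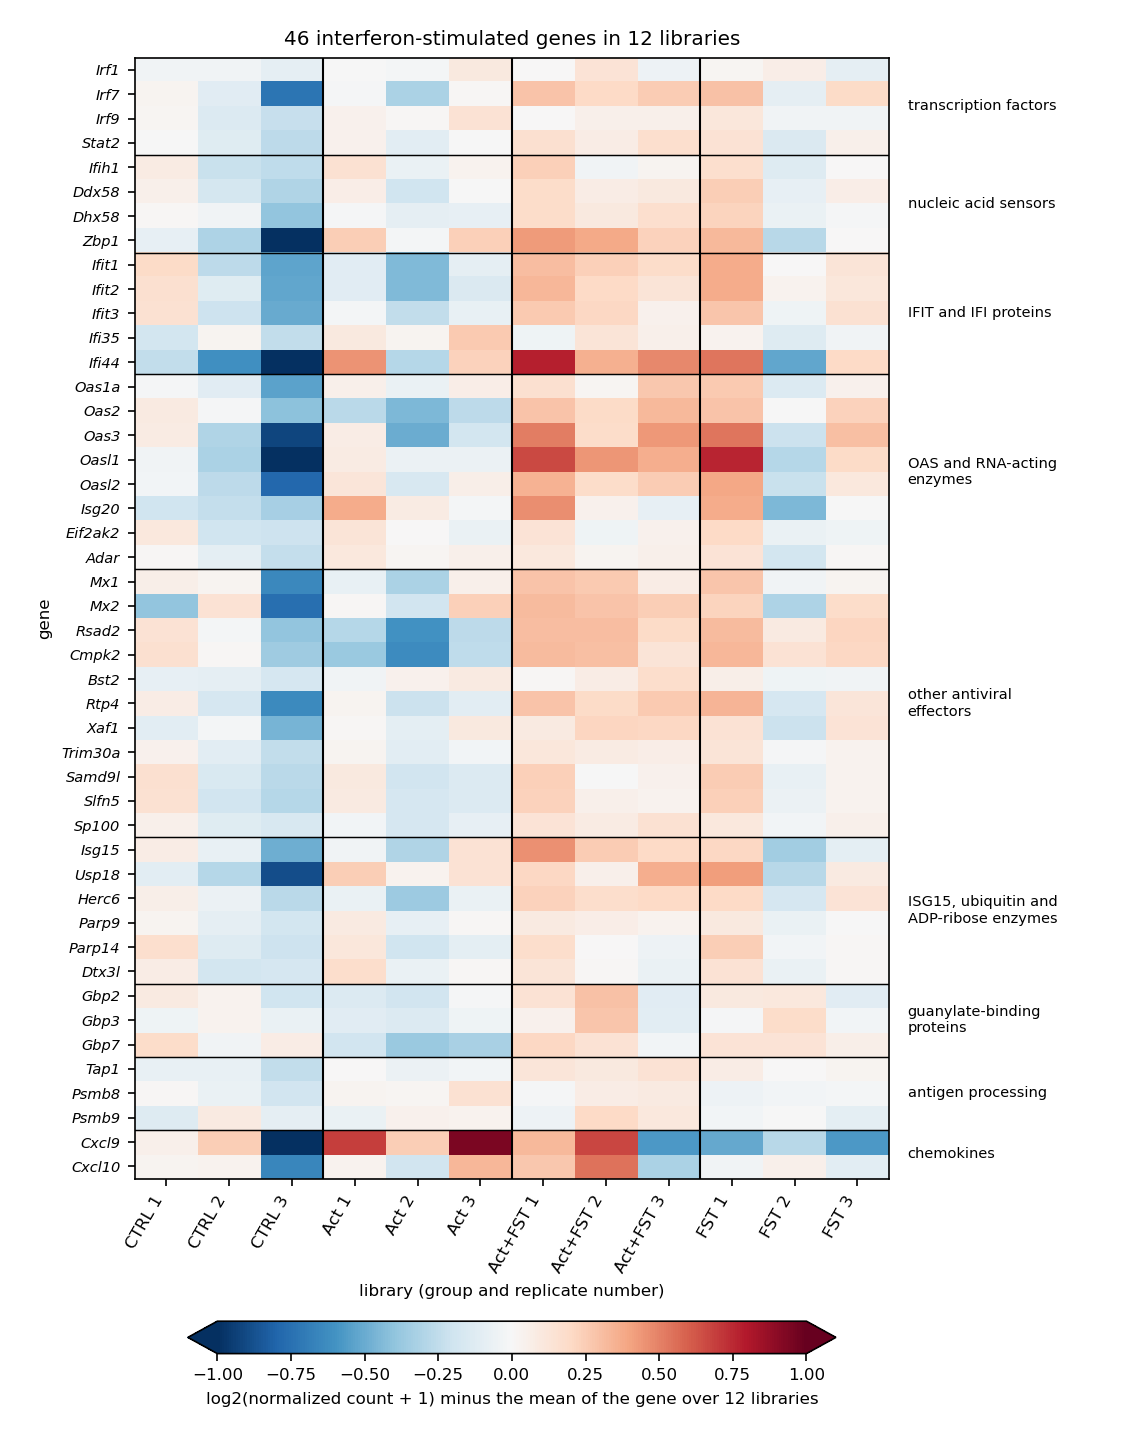
Heat map of log2(normalized count + 1) minus the mean of the gene over the 12 libraries, with the 46 members in rows by role and the libraries in columns by group; the colour scale ends at 1 log2 unit on either side. CTRL replicate 3 is blue in most rows, and the Act+FST libraries are mostly red.

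**Figure D2:**
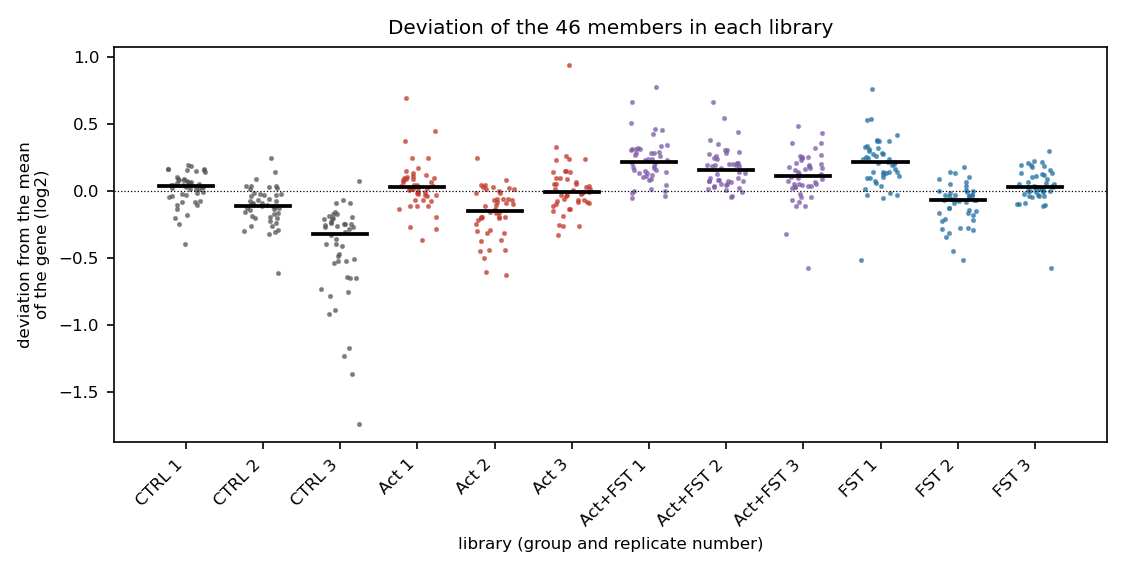
Deviation of each member (points) from its mean over the 12 libraries, on the log2 scale, for every library; horizontal bars are medians over the 46 members. The median of CTRL replicate 3 is -0.317, that of Act replicate 2 is -0.146, and the 3 Act+FST libraries lie between 0.116 and 0.219.

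The first comparison asked which ISGs differed after 6 days of activin A. Of the 46 members, 1 was higher in Act than in CTRL (Ifi35) and 1 was lower (Gbp7), by limma at an adjusted p of at most 0.05. Over all genes, 10.3% were called higher and 9.97% lower, so both shares of the members (2.17%) were below the background. None was a DEG, that is called and changed at least 2-fold, against 5.66% of all genes. The median log2 change was 0.10 over the members and 0.0036 over all genes.

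Gbp7 encodes a large interferon-induced GTPase that takes part in the defence of macrophages against intracellular bacteria. It had 898, 794 and 819 normalized counts in Act against 1170, 1005 and 1083 in CTRL, 1132, 1129 and 1072 in FST and 1189, 1136 and 1011 in Act+FST. All Act libraries lay below all 9 others. The log2 change of Act against CTRL was -0.37 (95% CI -0.53 to -0.22, limma, adjusted p = 0.0023), and 3 of 3 pairs with the same replicate number were lower in Act. The other guanylate-binding members were not called, with log2 changes of -0.07 (Gbp3) and -0.09 (Gbp2). Gbp7 shares 11.3% of its exonic bases with the gene model Gm43802 on the same strand, and reads that matched several genes were left out of the counts.

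Ifi35, an interferon-induced leucine zipper protein, had 238, 227 and 266 normalized counts in Act against 196, 226 and 187 in CTRL, 228, 203 and 217 in FST and 216, 243 and 230 in Act+FST. The lowest Act library exceeded the highest CTRL library by 1 normalized count. The log2 change was 0.26 (95% CI 0.08 to 0.45, limma, adjusted p = 0.048). The call was lost without CTRL replicate 3 (log2 change 0.21, adjusted p = 0.18, with a range of 0.019 to 0.18 over 17 alternatives), and also without CTRL replicate 1, Act replicate 1 or Act replicate 3.

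The remaining 44 members had log2 changes between -0.35 and 0.94. The largest were those of Cxcl9, Ifi44 and Oasl1, all genes with low counts. Cxcl9 had 52, 38 and 62 normalized counts in Act and 33, 38 and 13 in CTRL (log2 change 0.94, 95% CI 0.10 to 1.78, limma, adjusted p = 0.11). Ifi44, a cytoplasmic protein used as a marker of interferon exposure, had 157, 94 and 135 in Act and 97, 75 and 44 in CTRL (log2 change 0.87, adjusted p = 0.064, limma). Oasl1 had 119, 108 and 108 in Act, close together, so that its log2 change of 0.68 fell to 0.16 without CTRL replicate 3. For 42 of the 46 members the 95% interval lay within 1 log2 unit on either side of 0, so a 2-fold change lay outside it. The exceptions were Zbp1, Ifi44, Oasl1 and Cxcl9.

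With the replicate number as a block, 12 members were higher and 3 lower in Act than in CTRL, where 16.3% and 15.2% of all genes were called. The 12 higher members were Irf9, Ifih1, Zbp1, Ifi35, Ifi44, Oasl2, Isg20, Eif2ak2, Adar, Usp18, Dtx3l and Cxcl9, and the 3 lower ones Gbp7, Rsad2 and Cmpk2. This balance depended on the CTRL libraries used. Without CTRL replicate 1 and without the block, 6 members were higher and 1 lower, with 2671 of 14341 genes called in either direction. CTRL replicate 3 was the lowest library for most members, so leaving it out was bound to lower Act minus CTRL for them. Without CTRL replicate 3 and without the block, 0 members were higher and 4 were lower (Gbp7, Cmpk2, Rsad2 and Oas2). There 7.51% and 7.15% of all genes were called, and the median log2 change of the members was 0.02. At an unadjusted p under 0.05, 6 members and 3879 of 14318 genes passed there by limma. With the block and without the library, Ifih1, Zbp1 and Ifi44 were higher (13.7% of all genes), and Gbp7, Cmpk2, Rsad2, Oas2, Ifit2 and Herc6 were lower (12.2% of all genes).

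**Figure D3:**
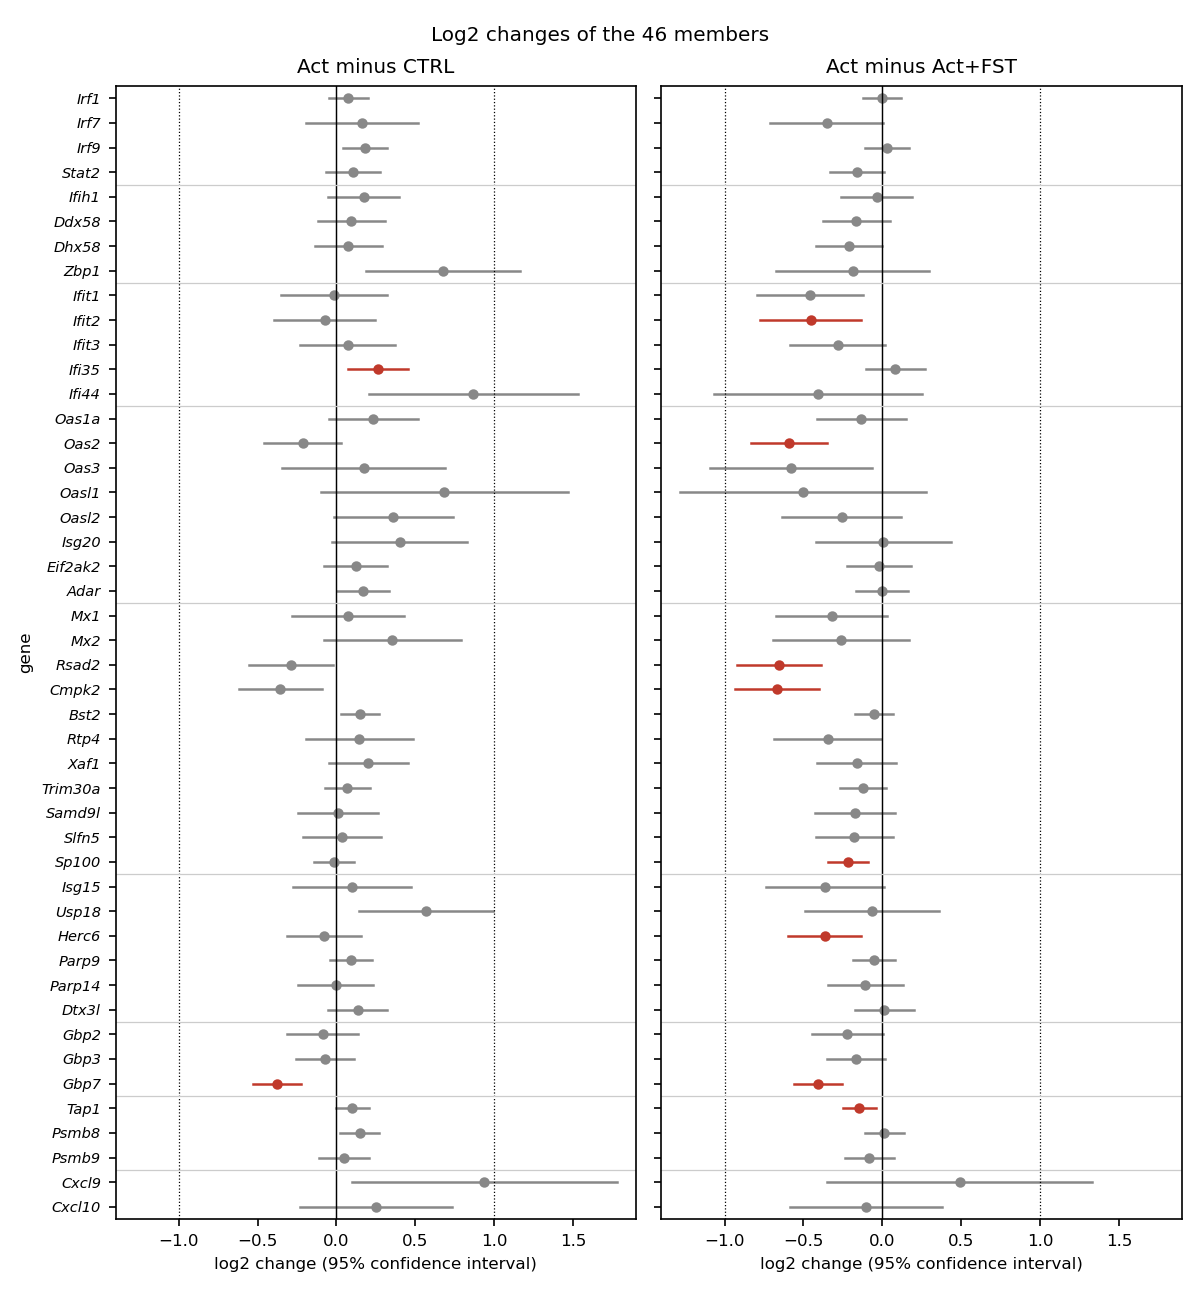
Log2 changes of the 46 members, Act minus CTRL (left) and Act minus Act+FST (right), with 95% confidence intervals from limma, in the order of the heat map; red marks an adjusted p of at most 0.05, dotted lines mark a 2-fold change, and the Act libraries are shared by both panels. Gbp7 is red and left of 0 in both panels, and the 8 red members on the right are all left of 0.

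The second comparison set activin A against the same dose of activin A with FST288. Here 8 members were lower in Act and 0 higher (limma, adjusted p at most 0.05), where 10.2% of all genes were called lower and 11.1% higher. The lower members made up 17.4% of the 46. None was a DEG, against 5.83% of all genes. At an unadjusted p under 0.05, 12 members and 4687 of 14318 genes passed. The median log2 change was -0.17 over the members and -0.0025 over all genes, and 40 of the 46 lay below 0. In 22 members all 3 Act libraries lay below all 3 Act+FST libraries, which was so for 16.7% of all genes, and in none did they lie above. Both comparisons use the same Act libraries, so they are not independent.

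The largest differences were those of Cmpk2 and Rsad2. Rsad2 encodes viperin, which makes a chain-terminating nucleotide analogue from CTP, and Cmpk2 encodes a mitochondrial kinase that supplies CTP. Their gene bodies lie 12752 bases apart on chromosome 12 and point away from each other. Cmpk2 had 334, 279 and 362 normalized counts in Act against 481, 436 and 337 in CTRL, 542, 476 and 499 in FST and 537, 533 and 472 in Act+FST. Rsad2 had 657, 527 and 670 in Act against 884, 790 and 608 in CTRL, 997, 855 and 931 in FST and 995, 991 and 914 in Act+FST. In both genes the Act libraries lay below all Act+FST and all FST libraries and overlapped with CTRL only through CTRL replicate 3. The log2 change of Act against Act+FST was -0.67 for Cmpk2 (SE 0.12, limma, adjusted p = 0.0020) and -0.65 for Rsad2 (SE 0.12, limma, adjusted p = 0.0023).

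Oas2, an oligoadenylate synthetase that activates RNase L on sensing double-stranded RNA, had 761, 672 and 766 normalized counts in Act against 974, 909 and 690 in CTRL, 1117, 916 and 1073 in FST and 1115, 1049 and 1145 in Act+FST. Its log2 change of Act against Act+FST was -0.59 (SE 0.11, limma, adjusted p = 0.0024). Its neighbour Oas3 had a similar change (-0.58) with a larger spread (SE 0.24) and was not called (adjusted p = 0.11, limma). Gbp7 was lower in Act than in Act+FST by a log2 change of -0.41 (SE 0.07, limma, adjusted p = 0.0013). Gbp7, Cmpk2, Rsad2 and Oas2 kept their calls in this comparison under each of the 17 alternatives tried, as did Gbp7 in Act against CTRL.

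The other 4 members called had smaller changes. Ifit2, a tetratricopeptide protein that binds viral RNA, had 835, 665 and 815 normalized counts in Act against 1011, 829 and 630 in CTRL, 1171, 925 and 979 in FST and 1138, 1038 and 986 in Act+FST (log2 change -0.45, limma, adjusted p = 0.045). Herc6, the mouse ligase that attaches ISG15 to proteins, had 424, 344 and 423 in Act against 463, 426 and 368 in CTRL, 510, 395 and 487 in FST and 520, 500 and 509 in Act+FST (log2 change -0.37, limma, adjusted p = 0.029). Act lay below Act+FST without overlap in both genes. Sp100, a component of nuclear bodies, had 1131, 1030 and 1091 in Act against 1194, 1059 and 1035 in CTRL, 1245, 1132 and 1199 in FST and 1270, 1225 and 1286 in Act+FST (log2 change -0.22, limma, adjusted p = 0.017). Tap1, a subunit of the peptide transporter of MHC class I, had 800, 764 and 781 in Act against 758, 758 and 673 in CTRL, 840, 798 and 810 in FST and 865, 853 and 878 in Act+FST (log2 change -0.15, limma, adjusted p = 0.046). In Tap1 the Act libraries lay above all CTRL libraries and below all Act+FST libraries. Ifit2 and Tap1 lost their call when any 1 of the 6 Act or Act+FST libraries was left out.

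**Figure D4:**
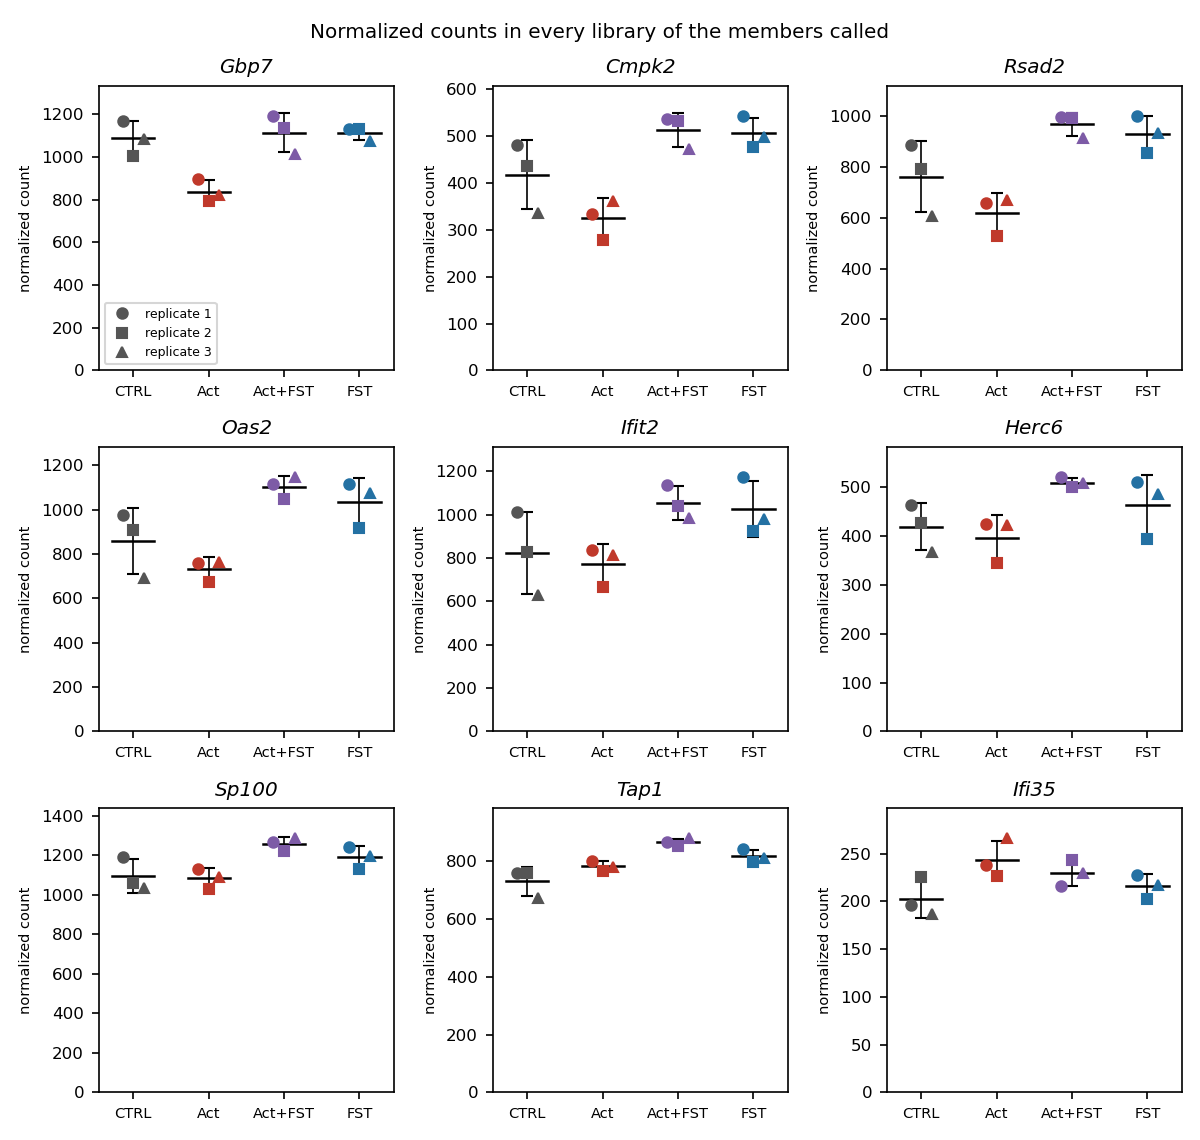
Normalized counts of the 9 members called in Act against CTRL or Act against Act+FST, in each library (circles, squares and triangles for replicates 1, 2 and 3) by group, with the group mean and SD (n = 3). Gbp7 is low in the Act libraries alone, while Cmpk2, Rsad2 and Oas2 have CTRL replicate 3 near the level of Act.

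The remaining 38 members had log2 changes of Act against Act+FST between -0.58 and 0.49, and the 3 largest were those of Oas3 (-0.58), Oasl1 (-0.50) and Cxcl9 (0.49). By role, the median log2 change was -0.41 for the IFIT and IFI proteins, -0.22 for the other antiviral effectors and for the guanylate-binding proteins, -0.20 for the OAS and RNA-acting enzymes and -0.18 for the sensors. It was nearer to 0 for the ISG15, ubiquitin and ADP-ribose group (-0.09), the transcription factors (-0.08) and antigen processing (-0.08), and 0.19 for the chemokines. Isg15, a ubiquitin-like protein, had 118, 98 and 134 normalized counts in Act and 166, 144 and 139 in Act+FST. Mx1 had 480, 405 and 522 in Act and 616, 604 and 531 in Act+FST. In neither gene did these groups overlap, but the spread was wide and neither was called (log2 changes -0.36 and -0.32, limma, adjusted p = 0.16 and 0.20). Isg15 and Mx1 were picked for their familiarity, after their values were seen.

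With the replicate block, 18 members were lower in Act than in Act+FST and 0 higher (15.4% and 17.1% of all genes). Added to the 8 were Stat2, Ddx58, Dhx58, Ifit1, Ifit3, Oas3, Rtp4, Samd9l, Slfn5 and Gbp2, and all 8 kept their call. CTRL replicate 3 bore on this comparison through the shared estimate of the spread only. Without it, 14 members were lower (9.67% of all genes). With the block and without it, 26 members were lower and 0 higher, where 4661 of 14318 genes were called in either direction. The members deviated most in that library, so a narrower spread without it was foreseeable. Leaving out any other CTRL or FST library gave 6 to 9, and leaving out 1 Act or Act+FST library gave 4 (Act replicate 2) to 6.

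Of the members of highest level in their role groups, those not described above were called in neither comparison without the block. Stat2, which is part of the ISRE-binding complex with IRF9, had 1276, 1146 and 1230 normalized counts in Act against 1233, 1138 and 1029 in CTRL, 1367, 1116 and 1283 in FST and 1382, 1305 and 1390 in Act+FST. Ddx58, which encodes the RNA sensor RIG-I, had 1065, 885 and 1013 in Act against 1052, 903 and 825 in CTRL, 1205, 962 and 1065 in FST and 1155, 1071 and 1088 in Act+FST. Stat2 and Ddx58 were lower in all Act than in all Act+FST libraries, by log2 changes of -0.16 for each, and neither was called without the block. Adar, which edits adenosine in double-stranded RNA, had 1323, 1251 and 1277 in Act against 1244, 1149 and 1042 in CTRL, 1351, 1085 and 1242 in FST and 1321, 1256 and 1275 in Act+FST. Its Act and Act+FST values nearly coincided pair by pair (log2 change -0.0004, 95% CI -0.17 to 0.16).

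Slfn5, a Schlafen family protein, had 1921, 1609 and 1642 normalized counts in Act against 2009, 1581 and 1485 in CTRL, 2134, 1732 and 1848 in FST and 2122, 1870 and 1845 in Act+FST. Parp14, an ADP-ribosyltransferase, had 2455, 1976 and 2126 in Act against 2551, 2073 and 1967 in CTRL, 2700, 2227 and 2286 in FST and 2566, 2281 and 2199 in Act+FST. In both genes replicate 1 was the highest library of every group, and the groups overlapped throughout. Within each replicate number, Act lay below Act+FST and below FST in both genes. With the block both were called against FST (limma, adjusted p = 0.022 for Slfn5 and 0.018 for Parp14). Cxcl10, a chemokine that attracts activated T cells through CXCR3, had 168, 143 and 206 in Act against 167, 168 and 104 in CTRL, 160, 170 and 152 in FST and 197, 239 and 131 in Act+FST, with no order among the groups.

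The replicate number itself moved many members. Tested in a model with the groups, it was called for 15 members (32.6%) against 21.6% of all genes (limma, adjusted p at most 0.05). In all 15 the mean deviation of replicate 1 from the group means was above 0 and those of replicates 2 and 3 were below 0. Markers of fibroblasts and stroma (9 genes, of which 8 were listed) were also highest in replicate 1 of every group, with sums of 289 normalized counts in Act, 105 in CTRL, 183 in FST and 177 in Act+FST against 65 to 85 in the other libraries. Of the 5 that passed the filter 1 was lower in Act than in CTRL and 0 higher (limma), with a median log2 change of 1.01. With the block 2 were higher and 1 lower, and the part of these markers was not tested. For Ifih1, which encodes the RNA sensor MDA5, these deviations were 0.16, -0.11 and -0.05 log2 units, and for Samd9l, an antiviral factor of myeloid cells, 0.19, -0.11 and -0.08.

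Activin A with FST288 was then compared with no treatment. By limma, 0 members and 0% of all genes passed. All 46 members had a log2 change above 0 (median 0.29, all genes -0.0008). At an unadjusted p under 0.05, 31 members and 655 of 14318 genes passed. With the replicate block 8 members were higher (Stat2, Ifih1, Zbp1, Ifi44, Oas3, Oasl2, Sp100 and Tap1), against 0.279% of all genes. Without CTRL replicate 3 the median was 0.17, 45 members lay above 0 and 14 had an unadjusted p under 0.05 (612 of 14318 genes). With the block and without that library 2 members passed (Ifi44 and Oas3, 0.0279% of all genes). The Act+FST group had the highest of the 4 group means in 40 members, against 21% of all genes. FST alone against CTRL gave 0 members called and 0% of all genes by limma, with a median log2 change of 0.16 over the members. At an unadjusted p under 0.05, 17 members and 299 of 14318 genes passed. The number of members was 1 without CTRL replicate 3 (median 0.08), 1 without FST replicate 1 and 2 without FST replicate 3. It was 26 without FST replicate 2 and 30 without CTRL replicate 1. Over all genes the number in these fits was between 239 and 473. Between Act+FST and FST, 0 members were called by limma and 1 had an unadjusted p under 0.05 (502 of 14318 genes).

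The activin effect without FST288 (Act minus CTRL) was tested against that with FST288 (Act+FST minus FST). With all libraries, Gbp7 was the 1 member called (difference of log2 changes -0.37, limma, adjusted p = 0.042), against 6.74% of all genes called. At an unadjusted p under 0.05, 2 members and 2826 of 14318 genes passed. Without CTRL replicate 3, Oas2 was called in its place (-0.46, limma, adjusted p = 0.048, 1.78% of all genes called lower) and Gbp7 was not (-0.37, limma, adjusted p = 0.088), and the median over the members went from 0.04 to -0.09. With the block Gbp7 alone was called. With the block and without CTRL replicate 3 the 6 members Cmpk2, Gbp7, Herc6, Ifit2, Oas2 and Rsad2 were called. All 6 were lower (-0.53 to -0.29, limma, 6.14% of all genes called lower). CTRL replicate 3 was the lowest library for most members, so leaving it out was bound to lower this difference for them.

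Against FST, the other group without activin A, 4 members were lower in Act (Gbp7, Cmpk2, Rsad2 and Oas2, limma) and 0 higher, where 11.7% of all genes were called lower. With the block 11 were lower (17% of all genes), with Herc6, Ifit1, Ifit2, Parp14, Samd9l, Slfn5 and Sp100 added, and Cxcl9 was higher (17.3% of all genes).

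The upstream genes of the pathway were read next. Of the 6 interferon receptor genes, Ifnar1, a subunit of the type I receptor, and Ifngr2, a subunit of the type II receptor, were higher in Act than in CTRL (log2 changes 0.19 and 0.19, limma, adjusted p = 0.030 and 0.0062) and than in Act+FST (0.21 and 0.20). Ifnar1 was not called against CTRL without CTRL replicate 3. Ifnar2, Ifngr1, Il10rb and the weakly expressed Ifnlr1 were not called in either. Stat3, a transducer of interleukin signals, was higher in Act than in CTRL (0.18, limma, adjusted p = 0.0081), and the kinase genes Jak1, Jak2 and Tyk2 were not called. With the block Jak2 was called (limma, adjusted p = 0.0089 against CTRL and 0.046 against Act+FST). The 1 interferon gene analysed here, Ifnz, had 0 to 3 normalized counts.

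Among 20 genes that lead to interferon production, 4 were higher and 1 lower in Act than in CTRL (6 and 2 with the block, 2 and 1 without CTRL replicate 3), against the shares of all genes given above. Higher were Traf3 (log2 change 0.49), an adaptor that activates TBK1, Tlr9 (0.38), a DNA sensor of endosomes, Sting1 (0.30), the adaptor of cytosolic DNA sensing, and Mavs (0.14), the adaptor of RIG-I and MDA5. Irf4, a regulatory factor of the IRF family, was lower (-1.53, limma, adjusted p = 1.4e-05), with mean normalized counts of 139 in Act against 403 in CTRL, 420 in FST and 373 in Act+FST. Mavs and Tlr9 lost their calls without CTRL replicate 3, and the block added Tlr3, Cgas and, among the lower genes, Tlr4. Of 14 negative regulators, Socs3, a feedback inhibitor of JAK signalling, was the 1 called (1.15, limma, adjusted p = 0.00034), with means of 115 in CTRL and 257 in Act. Usp18, a member that takes ISG15 off proteins and blocks the type I receptor, was not called (0.57, limma, adjusted p = 0.060). With the block Usp18 (limma, adjusted p = 0.012) and Rnaseh2c were called too.

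A further 93 ISGs outside the 46 were tested. Against CTRL 7 were higher and 7 lower in Act (limma, 10.3% and 9.97% of all genes). Against Act+FST 2 were higher and 23 lower (limma, 11.1% and 10.2% of all genes). With the block these counts were 17 and 12 against CTRL (16.3% and 15.2% of all genes) and 4 and 45 against Act+FST (17.1% and 15.4%). Without CTRL replicate 3 they were 2 and 8 against CTRL (7.51% and 7.15% of all genes). Against Act+FST they were then 3 and 28, where 9.67% of all genes were called lower. Among the genes called against CTRL, the largest changes were those of Ccl5 (1.49), a chemokine, Gbp8 (-0.71), a further guanylate-binding protein, Ifitm1 (-0.70), a membrane protein that restricts virus entry, and Nlrc5 (0.58), the activator of MHC class I genes. Ccl5 and Nlrc5 lost their calls without CTRL replicate 3. Gbp8 had a mean of 97 normalized counts in Act against 163 in CTRL, 201 in FST and 247 in Act+FST, and its log2 change against Act+FST was -1.33 (limma, adjusted p = 5.9e-05). Of 18 MHC class I genes, H2-Q7 (1.40), H2-Q6 (1.14) and H2-Q4 (0.25) were higher in Act than in CTRL. H2-D1, H2-T22 and H2-T23 were lower in Act than in Act+FST (-0.19, -0.21 and -0.24). The shares of all genes are those given for the 93. Without CTRL replicate 3 the H2-Q genes were not called against CTRL and H2-T23 was lower, and with the block Erap1, Tap2 and Tapbpl were also higher. The H2-Q genes are near-identical copies, and their counts are uncertain.

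Summed markers of some other cell types differed between Act and the other groups, while those of other lists overlapped. Of 8 monocyte markers 2 were higher in Act than in CTRL and 1 was higher than in Act+FST (limma), with 0 lower in either. With the block 3 were higher and 2 lower than in CTRL, and 3 higher and 1 lower than in Act+FST. Their summed level was 2957 to 3189 normalized counts in Act, 1517 to 2383 in CTRL, 1671 to 2760 in Act+FST and 1418 to 2281 in FST. The monocyte list includes Ccr2, which the paper reports as raised by activin A in BMDMs. The 11 neutrophil markers summed to 3164 to 3743 in Act and to between 2583 and 3350 elsewhere, with 1 higher and 2 lower in Act than in CTRL. The 10 listed markers of plasmacytoid dendritic cells, the main interferon producers, summed to 3978 to 4184 in Act, 3655 to 3888 in CTRL, 3512 to 3811 in Act+FST and 3588 to 3772 in FST, and Runx2 was the 1 called against CTRL. Bst2, itself a member, is on that list. Most of the sum came from Tcf4 and Irf8, which macrophages also express, while Siglech averaged 54.3 in CTRL and 83.7 in Act. Of the lymphocyte lists, 5 of 14 T and NK cell markers were analysed here, and apart from Cd4 each averaged at most 8 normalized counts in every group. The T and NK cell sum was 405 to 506 in Act, 618 to 709 in CTRL, 614 to 750 in Act+FST and 651 to 799 in FST, and the B cell sum 989 to 1018, 1140 to 1223, 1038 to 1293 and 1094 to 1263 in the same order. Conventional dendritic cell markers summed to 517 to 553 in Act, 546 to 777 in CTRL, 291 to 490 in Act+FST and 523 to 607 in FST. No listed marker was at 0 in all libraries. In bulk samples fewer cells of a type and less RNA per cell cannot be told apart, and the part of these markers in the results was not tested.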

How the data were processed

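The authors trimmed reads (Trimmomatic 0.39), aligned them to mm10 (STAR 2.7.9a), counted them per gene (featureCounts 2.0.2) and tested them with DESeq2 1.30.0. The deposited signal is a table of read counts that the authors scaled and rounded, here called normalized counts. The scaling formula and the strand setting were not given in the sources used here, raw counts were not used here, and counts of antisense partners cannot be told apart without the strand.

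Values were analysed as log2(value + 1) with limma 3.58.1 (R 4.3.3, trend) in one model of 4 group means over 12 libraries, for genes with a mean of at least 5, with Benjamini-Hochberg adjustment over 14318 genes. Fold changes are on that scale and understate those of low genes. Called means an adjusted p of at most 0.05. The code was tested on simulated data. Libraries with the same replicate number deviated together (18 pairs, r between 0.157 and 0.481), so the fit with the number as a block is given beside the counts of members. The 36 other pairs averaged -0.156, which follows from taking deviations from group means and is no separate evidence.

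Values in every library were printed for members called in the Act comparisons and for the member of highest mean per role group, and the 3 uncalled members with the largest change were named; others were chosen after their values were seen. The members and lists were chosen with earlier results of these data known. Alternatives were pseudocounts of 0.5 and 5, other filters and scalings, limma without trend, the block and fewer libraries, with each library left out in turn. Added after seeing the data were a correction for reads that share a start position and the block fit without CTRL replicate 3. So were the test of the replicate number without that library and FST in place of CTRL. The stress on CTRL replicate 3 among the libraries left out also came after seeing the data. One gene of the signalling list is not reported here.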

Additional observations from a re-analysis of the deposited data

Results flagged for a closer look

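In the fit with all libraries, Gbp7 was the 1 member whose activin effect differed between cells without and with FST288 by the interaction test. The effect without FST288 minus that with FST288 was -0.3730 on the log2 scale (limma, adjusted p = 0.042). The call was lost in 9 of the 12 fits that left out 1 library and without trend, while the difference stayed between -0.44 and -0.32 over the 21 alternatives (adjusted p 0.0017 to 0.099). Without CTRL replicate 3 Oas2 was called instead (-0.46, limma, adjusted p = 0.048). Gbp7 and 5 further members were called when the replicate number was a block and that library was left out. Leaving that library out was bound to lower the difference for most members. No explanation was tested.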

How the results depend on the processing

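Counts of members called are given for each setting. For Act versus CTRL, 2 members were called, against 1 in limma without trend, 1 with no filter on the mean, 1 with only the libraries compared, 15 with the replicate block, 9 with the replicate block without CTRL replicate 3, and 4 when FST took the place of CTRL. Leaving out 1 Act or CTRL library gave 1 (Act replicate 1) to 7 (CTRL replicate 1), and 1 library of the other groups 1 to 3. For Act versus Act+FST, 8 were called, against 5 without trend, 15 with only the libraries compared, 18 with the replicate block and 26 with the replicate block without CTRL replicate 3, and leaving out 1 Act or Act+FST library gave 4 (Act replicate 2) to 6, and 1 CTRL or FST library 6 to 14 (CTRL replicate 3). For Act+FST versus CTRL, 0 were called, against 8 with the replicate block and 2 with the block without CTRL replicate 3. The interaction gave 1, 0 without trend, 6 with the replicate block without CTRL replicate 3, and 0 to 1 with 1 library left out. The replicate number gave 15, 6 without trend, and 7 (Act replicate 1 or CTRL replicate 1) to 27 (Act replicate 3) with 1 library left out. FST versus CTRL gave 0 in every setting tried. The cause of these shifts was not tested. No named change reversed, and among the single calls Ifi35, Ifit2, Herc6, Sp100 and Tap1 were lost in 8, 7, 5, 2 and 8 of 17 alternatives. Precision was limited by 3 libraries per group, and the depth before scaling was not known.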
